A study of Oryza sativa with 6 samples.

Results

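The rice array carried 147 probes for the hairpins of 7 microRNA families linked to plant development, among 42418 gene probes in all. They were chosen by name: every non-control probe called osa-miR156, osa-miR159, osa-miR166, osa-miR171, osa-miR172, osa-miR319 or osa-miR396. They stand for 49 hairpins, each with 3 probes that the array's design calls 5′seq, Mature and 3′seq, and each probe was spotted 2 times. Another 363 probes stand for other rice microRNAs. Which stretch of a hairpin each kind of probe covers is not stated in the labels or headers used, and the design's annotation is built on IRGSP5.

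Total RNA came from the internode, the stem segment between nodes, of rice (Oryza sativa, cultivar Nipponbare) at heading, and was taken halfway along the upper second internode. There were 3 wild-type plants' samples and 3 from plants in which OsCAld5H1 had been knocked out with CRISPR/Cas9, with 1 array per sample. The knockout samples were T2 plants of 1 edited line, and both genotypes were grown at 27 °C with 12 h of light a day. OsCAld5H1 encodes a coniferaldehyde 5-hydroxylase, through which precursors enter the syringyl branch of lignin synthesis. The labels call the replicates biological, and the labels used do not say whether each was 1 plant.

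A plant microRNA is cut by a Dicer-like enzyme out of a long, capped and polyadenylated primary transcript that folds into a hairpin. The short mature strand is then methylated, loaded into an Argonaute protein and paired with the messenger RNA of its targets, which is cut or translated less. The 7 families act mostly on transcription factors: miR156 on SPL genes that govern the change from juvenile to adult growth and tillering, miR159 on GAMYB genes of gibberellin response, miR166 on class III HD-ZIP genes of vascular pattern and leaf polarity, and miR171 on HAM genes of the GRAS family, which act in meristems. miR172 acts on AP2-like genes of the floral transition and spikelet, miR319 on TCP genes of leaf growth, and miR396 on growth-regulating factors (GRF). The labelling chemistry copies RNA from its poly(A) tail, so such an array chiefly reads primary transcripts rather than free mature strands.

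The arrays were alike in range, and they differed by slide. Between 74.3% and 78.3% of the gene spots on an array were well above background, no gene spot was saturated, and the number of arrays limits the precision. One slide held all 3 wild-type arrays and a second held all 3 knockout arrays, and in every value below the slide cannot be told apart from the genotype. Log2 signal is given with the 75th percentile of its own array as zero, so that a probe at -3 lies 3 log2 units below that percentile, and levels of different probes are not set against each other. The probe for OsCAld5H1 itself does not check the edit, whose place in the gene the labels used do not state. It read -0.54, -0.52 and -0.05 in wild-type and -3.996, -1.78 and -1.23 in the knockout, without overlap, a difference of -1.97 ± 0.70 (SE) with an adjusted p of 0.205 in limma. Markers of the secondary wall (CESA4, CESA7 and CESA9) were measured in every sample, as were green-tissue markers (CAB1R, CAB2R and RBCS). In such bulk samples, fewer cells of a type and less RNA per cell cannot be told apart.

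Most hairpin probes were dark in this tissue. Of the 147 probes, 99 were well above background on no array, 13 were so on some arrays only, and 35 (23.8%) were bright on all 3 arrays of at least 1 genotype and were tested. Over all probes, 75.8% passed the same filter. The tested probes belonged to 19 of the 49 hairpins, and 25 hairpins had at least 1 probe above background on at least 1 array.

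The families differed in how many probes could be read. miR166 had 16 of 39 probes tested, from 7 of its 13 hairpins. miR319 had 3 of 6, from both of its hairpins, and miR159 had 4 of 18, from 2 of 6 hairpins. miR156 had 5 of 33 probes tested, from 4 of 11 hairpins, miR171 had 4 of 27, from 2 of 9, miR172 had 2 of 12, from 1 of 4, and miR396 had 1 of 12, from 1 of 4. By kind, 12 of the 49 5′seq probes, 7 of the 49 Mature probes and 16 of the 49 3′seq probes were tested. Of these 7 Mature probes, 6 belonged to miR166 and 1 to miR171a. Among the 5′seq and 3′seq probes, those whose design name carries a transcript or EST were tested in 21 of 57 cases (36.8%), and those named by the hairpin alone in 7 of 41 (17.1%). On chromosome 1, transcripts with neighbouring identifiers were read differently: none of the flank probes of miR159c (Os01t0219800), miR159d (Os01t0220001) or miR159f (Os01t0222200) was above background on any array, whereas both flank probes of miR319b (Os01t0222001) were so on all 6.

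The central question was whether these probes differed between the genotypes. In the knockout arrays 1 member rose, miR156d 3′seq, and 2 fell, the 5′seq and 3′seq probes of miR171c. Limma with Benjamini-Hochberg adjustment over the whole table called 3.16% of the 32134 probes tested, 1.87% as rises and 1.29% as falls. The 3 calls among 35 members stand beside that background with 2 limits. The 2 falls are flanks of 1 hairpin and passed the filter only through the wild-type arrays. Of the 35 members 30 were above background on all 6 arrays, as were 30706 of the 32134 probes. At an unadjusted p under 0.05, 13 members passed, against 19.1% of all tested probes. The arrays of the genotypes did not overlap for 15 members, where 27.0% of all tested probes did not overlap. The 13 and the 15 both include the 2 miR171c probes and miR166h 5′seq, which passed the filter only through the knockout arrays. The members split evenly in direction, with 18 higher and 17 lower in the knockout, and their median log2 difference was 0.0018, against 0.0046 over all tested probes. That split moved with single arrays: 11 were higher and 24 lower without knockout replicate 1, and 24 were higher and 11 lower without wild-type replicate 1.

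The miR171c transcript gave the largest differences of the members. In rice, miR171c is known for a part in the timing of heading through its HAM targets. Its 5′seq probe, which names the transcript Os04t0623901-01 on chromosome 4, read -5.67, -6.43 and -5.74 in wild-type replicates 1, 2 and 3 and -8.20, -8.57 and -7.85 in knockout replicates 1, 2 and 3. Its 3′seq probe read -5.88, -6.49 and -6.13 in wild-type and -7.93, -8.81 and -9.04 in the knockout. At both probes every wild-type array was above background and no knockout array was, and the genotypes lay more than 1 log2 unit apart at their nearest arrays.

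The fitted differences of miR171c were -2.26 ± 0.27 (SE, adjusted p 0.0179) at the 5′seq probe and -2.43 ± 0.32 (adjusted p 0.0216) at the 3′seq probe. Because no knockout array was above background, a floored ratio was also taken. By it, wild-type was 2.34-fold brighter at the 5′seq probe and 2.00-fold at the 3′seq probe. This ratio sets the mean of the bright genotype against a floor on the dim arrays. The floor is the lowest signal well above background on the array, or the dim probe's own signal where that is higher. It is not a detection limit for a given probe, so the ratio is no guaranteed minimum. Both probes entered the test only through the wild-type arrays, so a difference was built into their selection. The miR171c Mature probe was above background on no array, and no other probe on the array carried that transcript's locus.

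The size of the miR171c differences held when single arrays were left out, at -2.50 to -2.08 for the 5′seq probe and -2.76 to -2.20 for the 3′seq probe. The authors' values equal the processed signal times 1 constant per array, so their fit repeats the one above by construction. Both calls held with quantile normalisation, with no filter on dim probes and without knockout replicate 1 or 3. They ended under other settings. With normexp background correction, whose offset shrinks the differences of dim probes, the values were -0.40 (adjusted p 0.0663) and -0.34 (adjusted p 0.0935) at the 5′seq and 3′seq probes. Both calls also ended without knockout replicate 2 (adjusted p 0.0573 and 0.0815), without wild-type replicate 1 (0.0818 and 0.0967) and without wild-type replicate 3 (0.0896 and 0.0995), and the 3′seq call ended without wild-type replicate 2 (0.0666).

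Other miR171 hairpins differed in the opposite direction or were too dim. The miR171a 3′seq probe (chromosome 6) read -5.58, -5.87 and -5.63 in wild-type and -4.89, -5.15 and -5.17 in the knockout. All knockout arrays were above all wild-type arrays, and the difference of 0.63 ± 0.14 (SE) did not pass the threshold (adjusted p 0.0767). The Mature probe of miR171a differed by 0.58 ± 0.17 (adjusted p 0.153). A further 4 miR171 probes were seen above background on some arrays without being tested: miR171a 5′seq, miR171b 5′seq, miR171f 5′seq and miR171f 3′seq. Each was seen on more wild-type than knockout arrays, with 6 wild-type and 1 knockout detections in all. Only miR171a 5′seq did not overlap between the genotypes in signal. The share of spots above background was 74.3%, 76.3% and 78.3% on knockout replicates 1, 2 and 3. On wild-type replicates 1, 2 and 3 it was 76.0%, 76.1% and 78.0%. The lowest such signal was -6.76, -7.18 and -7.58 in the knockout and -7.18, -7.21 and -7.60 in wild-type. The part of these array differences in the miR171 detections was not tested. The other 19 miR171 probes were above background on no array.

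The 5 tested miR156 probes, of 33 in the family, were higher in the knockout by 0.34 to 0.68 log2 units, with a median of 0.44. The direction held for 5 of 5 probes with normexp, with quantile normalisation and with each array left out. The other alternatives leave a probe's difference unchanged, so they could not alter its sign. The called member, miR156d 3′seq, names the transcript Os02t0180800-01 on chromosome 2. It read -2.89, -3.07 and -3.12 in wild-type and -2.24, -2.39 and -2.41 in the knockout, with no overlap. The difference was 0.68 ± 0.12 (SE), or 1.60-fold, with an adjusted p of 0.0400. This call ended when any single array was left out (adjusted p 0.0506 to 0.187), with normexp (0.42, adjusted p 0.0830) and with no filter on dim probes (adjusted p 0.0771).

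The other tested probes of the miR156 transcripts did not pass the test, and some untested ones near background read lower in the knockout. The 5′seq and Mature probes of miR156d were above background on no array. A separate gene probe of its locus, Os02g0180800, read -3.51, -3.65 and -3.57 in wild-type and -2.21, -3.64 and -3.23 in the knockout, where replicate 2 lay within the wild-type range. Its difference was 0.55 ± 0.36 (adjusted p 0.458). For miR156h (Os06t0649600-01, chromosome 6), the 3′seq probe read -3.87, -3.77 and -3.74 in wild-type and -3.40, -3.36 and -3.31 in the knockout. The genotypes did not overlap, and the difference was 0.44 ± 0.10 (adjusted p 0.0882). The miR156h 5′seq probe differed by 0.35, and the gene probe of that locus, Os06g0649600, by 0.52 ± 0.25 (adjusted p 0.330). The miR156k 3′seq probe differed by 0.59 ± 0.18 (adjusted p 0.150) and the miR156f 3′seq probe by 0.34 ± 0.22 (adjusted p 0.470). The miR156f 5′seq probe was above background on 2 wild-type arrays and no knockout array, so it was not tested. It read -7.39, -7.03 and -7.27 in wild-type and -7.56, -9.18 and -7.92 in the knockout, lower there without overlap. Its floored ratio, wild-type over knockout, was 0.96, so no decrease can be read from it. The miR156c 5′seq probe, with the same detections, read -6.56, -6.93 and -7.00 in wild-type and -7.51, -7.20 and -7.40 in the knockout. It was also lower without overlap, with a floored ratio of 1.21. The miR156e 5′seq, miR156k 5′seq and miR156k Mature probes were seen on more knockout than wild-type arrays.

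The 3 miR319 probes were all lower in the knockout, by 0.26 to 0.32 log2 units, and none was called. The miR319b 3′seq probe read -2.28, -2.42 and -2.61 in wild-type and -2.63, -2.77 and -2.80 in the knockout. Its nearest arrays were 0.02 log2 units apart, and the difference was -0.30 ± 0.13 (SE, adjusted p 0.280). The miR319b 5′seq probe read -3.66, -3.75 and -3.98 in wild-type and -3.999, -4.18 and -4.15 in the knockout, a difference of -0.32 ± 0.13 (adjusted p 0.259). The miR319a 3′seq probe (Os01t0659400-01) differed by -0.26 ± 0.13 (adjusted p 0.356). The sign of the 3 probes was the same with normexp, with quantile normalisation and with each array left out. The other alternatives leave a probe's difference unchanged.

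The miR166 family, with the most tested probes of the 7 families (16, though a smaller share than miR319), had 0 calls by limma and 3 probes at an unadjusted p under 0.05, with 6 probes higher and 10 lower in the knockout and a median difference of -0.02. Its 6 tested Mature probes, those of miR166a, miR166b, miR166c, miR166d, miR166f and miR166n, differed by -0.19 to 0.00. These 6 moved together across the arrays, with a Pearson r between pairs of 0.67 to 0.98 (median 0.80, 15 pairs, 6 arrays). Mature strands of 1 family can be near-identical in plants, and the probes share array and labelling. Whether the 6 probes read the same RNA was not tested. The family's other Mature probes were above background on no array. These were the probes of miR166e, miR166g, miR166h, miR166i, miR166k, miR166l and miR166m. The median over the 6 Mature probes was -5.41, -5.86 and -5.77 on the wild-type arrays and -5.45, -5.81 and -5.96 on the knockout arrays, so the genotypes overlapped.

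The flank probes of miR166, its 5′seq and 3′seq probes, covered a wider range of differences than its Mature probes. The miR166n 5′seq probe (chromosome 3) read -4.15, -4.81 and -4.81 in wild-type and -5.11, -5.03 and -5.37 in the knockout, a difference of -0.58 ± 0.22 (SE, adjusted p 0.225). The miR166n 3′seq probe differed by -0.48 ± 0.19 (adjusted p 0.242). At miR166c (chromosome 3) the 3′seq probe read -4.71, -4.87 and -4.77 in wild-type and -4.83, -5.44 and -5.44 in the knockout, a difference of -0.45 ± 0.19 (adjusted p 0.273). Without knockout replicate 1 it was -0.66 and passed the threshold (adjusted p 0.0405). The miR166b 5′seq probe (chromosome 6) differed by 0.39 ± 0.16 (adjusted p 0.267). The miR166h 5′seq probe (chromosome 2) was above background on all 3 knockout arrays and on no wild-type array. It read -6.89, -7.13 and -7.80 in wild-type and -6.03, -6.58 and -6.43 in the knockout. Its floored ratio, knockout over wild-type, was 1.80, which is no guaranteed minimum. The fitted difference was 0.93 ± 0.27 (SE, adjusted p 0.144), so the probe was not called. It entered the test only through the knockout arrays, so a difference was built into its selection too. The other 5 tested flank probes of the family, on miR166a, miR166b, miR166c and miR166d, differed by -0.28 (miR166c 5′seq) to 0.07 (miR166b 3′seq).

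In miR159, the 2 flank probes of miR159a differed in size. This family's GAMYB targets act in gibberellin response and anther development. The miR159a 5′seq probe, named for Os01t0507000-02 on chromosome 1, read -2.66, -2.58 and -2.67 in wild-type and -2.10, -2.37 and -2.29 in the knockout. The genotypes did not overlap, and the difference was 0.38 ± 0.12 (SE, adjusted p 0.153). The 3′seq probe read -2.81, -2.76 and -2.98 in wild-type and -2.39, -3.19 and -2.68 in the knockout, with overlap and a difference of 0.10 ± 0.22 (adjusted p 0.848). The 2 gene probes of the same locus, Os01g0507000, differed by 0.33 ± 0.17 (adjusted p 0.354) and 0.19 ± 0.15 (adjusted p 0.543).

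Knockout replicate 1 stood apart at miR159b and miR172d. The miR159b 5′seq probe read -4.70, -5.25 and -5.37 in wild-type and -3.84, -5.93 and -5.86 in the knockout, and the 3′seq probe -3.60, -3.94 and -4.13 against -2.83, -4.31 and -4.10. At both probes knockout replicate 1 was the highest of the 6 arrays, while knockout replicate 2 was the lowest. The fitted differences were -0.10 ± 0.58 and 0.14 ± 0.40 (SE), with wide intervals of -1.51 to 1.31 and -0.84 to 1.12. The miR172d 5′seq probe read -6.56, -6.42 and -6.64 in wild-type and -5.65, -7.13 and -6.88 in the knockout. The miR172d 3′seq probe read -6.32, -6.33 and -6.39 against -5.77, -6.50 and -6.70. Here too knockout replicate 1 was highest and the other 2 knockout arrays were lowest, and the differences were -0.01 ± 0.38 and 0.03 ± 0.25. In miR396, the only tested probe was miR396d 5′seq (Os04t0674500-01, chromosome 4), at -5.83, -5.94 and -5.59 in wild-type and -6.18, -5.54 and -5.56 in the knockout, a difference of 0.03 ± 0.21 (adjusted p 0.958).

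The signal of the members also moved with the replicate number. Replicate 1 was the brightest of its 3 arrays for 27 of the 35 members in wild-type and for 29 in the knockout. Over all 32134 tested probes this held for 12011 and 12547. Replicate 1 of both genotypes lay at position 1 of its slide, and the part of position in these values was not tested. The median SD of a member was 0.18 log2 units in wild-type and 0.29 in the knockout, against 0.13 and 0.25 over all tested probes. The median gap between the 2 spots of a member on 1 array was 0.15 log2 units.

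A second question was whether the 2 flanks of a hairpin differed in their response. The within-array difference of 5′seq minus 3′seq was fitted for the 27 rice microRNA hairpins, of 170 on the array, with both probes tested, and limma called 0.0% of them at the adjusted threshold and 5 at an unadjusted p under 0.05. Of the 10 members among them, 2 passed the unadjusted threshold and 7 had flanks of the same sign. At miR166b the gap was -0.17, -0.03 and -0.44 in wild-type and 0.07, 0.11 and 0.13 in the knockout, so every knockout array was higher. The change in gap was 0.32 ± 0.12 (SE, 95% interval 0.03 to 0.61, adjusted p 0.188). At miR159a the gap was 0.15, 0.18 and 0.31 in wild-type and 0.28, 0.82 and 0.39 in the knockout, a change of 0.29 ± 0.15 (interval -0.10 to 0.67, adjusted p 0.262). At miR171c the 2 flanks differed by 0.16 ± 0.37 (interval -0.76 to 1.09), with neither above background in the knockout. At the other 7 hairpins the change in gap ran from -0.24 (miR159b) to 0.17 (miR166c), and at miR166c, where the flanks differed by -0.28 and -0.45, it passed the unadjusted threshold (p 0.0278, adjusted p 0.187, limma).

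The transcription factors that these families act on formed the third comparison, read at the brightest probe of each locus. Of 43 listed target loci, 40 had a probe and 34 were tested, and limma called 0 in either direction, where it called 3.41% of the 21798 loci tested. At an unadjusted p under 0.05, 3 of the 34 passed, against 19.6% of all loci. The targets split into 16 higher and 18 lower in the knockout. All 64 tested probes of these loci, brightest or not, were without a call.

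Among the SPL genes, targets of miR156, 8 of 10 were lower in the knockout at their brightest probe. SPL14, known in rice as a regulator of plant architecture and tiller number, read -3.00, -2.70 and -2.54 in wild-type and -3.16, -3.52 and -2.70 in the knockout. Its difference was -0.38 ± 0.24 (SE, adjusted p 0.436), with overlap. SPL4 differed by -0.33 ± 0.12 (adjusted p 0.206), with its other 3 probes between -0.31 and 0.48, and the other 7 lay between -0.38 (SPL16) and 0.01 (SPL12). SPL7 ran the other way, at -0.55, -0.85 and -0.26 in wild-type and 1.22, 0.65 and -0.15 in the knockout, where replicate 3 lay 0.12 log2 units above the nearest wild-type array. Its difference was 1.13 ± 0.36 (adjusted p 0.169), and without that array it was 1.49 and passed the threshold (adjusted p 0.0495).

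Among the targets of the miR159, miR166 and miR171 families, GAMYBL2 read -5.00, -5.09 and -5.38 in wild-type and -5.47, -6.00 and -5.40 in the knockout, a difference of -0.47 ± 0.20 (SE, adjusted p 0.279). GAMYB, which relays gibberellin signals in the aleurone and anther, differed by -0.04 ± 0.16 (adjusted p 0.912). At their brightest probes, the 5 class III HD-ZIP genes lay between -0.17 (HB5) and 0.02 (HB2), with HB1 at 0.00 and HB3 and HB4 both between -0.06 and -0.07. Their other probes differed by -0.37 (HB1) to 0.07 (HB4). HAM1 and HAM2, the GRAS genes that miR171 acts on, differed by 0.16 ± 0.11 (adjusted p 0.502) and 0.23 ± 0.13 (adjusted p 0.412), and HAM3 by -0.11 ± 0.14 (adjusted p 0.712). The 95% intervals of the 3 HAM loci together ran from -0.45 to 0.55.

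Of the AP2-like genes, targets of miR172, 5 of 5 were higher in the knockout at their brightest probe, by 0.27 or less, whereas the other probe of SHAT1 differed by -0.33. TOE3 differed by 0.27 ± 0.51 (SE, adjusted p 0.817). SNB, which in rice controls the change from spikelet to floral meristem, differed by 0.15 ± 0.13 (adjusted p 0.603). IDS1, SHAT1 and RSR1 lay between 0.00 (RSR1) and 0.07 (SHAT1). The TCP gene PCF6, a target of miR319, read -3.76, -3.30 and -3.36 in wild-type and -2.90, -2.86 and -2.92 in the knockout. All knockout arrays were higher, and the difference was 0.58 ± 0.15 (adjusted p 0.111). TCP21 differed by -0.15 ± 0.13 (adjusted p 0.604) and PCF5 by -0.09 ± 0.28 (adjusted p 0.901). Among the growth-regulating factors, GRF6 read -4.37, -4.19 and -3.85 in wild-type and -5.93, -3.99 and -3.75 in the knockout, where replicate 1 alone was low, a difference of -0.42 ± 0.57 (adjusted p 0.738). The other GRF6 probe differed by 0.78. GRF5 differed by 0.18 ± 0.12 (adjusted p 0.477), and GRF3, GRF4, GRF8 and GRF11 lay between -0.07 (GRF8) and 0.17 (GRF3).

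The genes that make and load microRNAs were read in both genotypes. All 6 of the listed loci were tested: DCL1, which cuts the hairpin, the Argonaute genes AGO1a, AGO1b, AGO1c and AGO1d, and WAF1, which in rice methylates small RNAs. Limma called 0 of the 6, against 3.41% of all loci, and 0 passed an unadjusted p under 0.05, against 19.6%. Their differences lay between -0.16 (AGO1b) and 0.17 (AGO1d).

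Marker lists for the tissue were set beside these values. The summed linear signal of the 3 secondary wall markers, in units of the array's 75th percentile, was 18.6 to 22.1 in wild-type and 14.5 to 26.1 in the knockout. Knockout replicate 1 was the lowest of all arrays at each of the 3 genes. The other 2 CESA4 probes differed by -0.85 to 0.05. The summed signal of the 3 green-tissue markers, carried mostly by CAB1R and CAB2R, was 113 to 198 in wild-type and 107 to 166.3 in the knockout. The green-tissue markers did not move together: at their brightest probes CAB1R differed by -0.21 ± 0.21 (SE) and CAB2R by -0.41 ± 0.34. RBCS read -0.09, -1.38 and -1.02 in wild-type and 1.20, 0.90 and 0.13 in the knockout, without overlap, a difference of 1.58 ± 0.41 (adjusted p 0.112). The other 6 RBCS probes differed by 0.02 to 0.48. Of 7 floral MADS genes 4 were tested, and MADS1, MADS3 and MADS6 were too dim. The sum of the 4 tested genes, carried mostly by MADS14 and MADS15, was 46.0 to 52.3 in wild-type and 32.8 to 39.2 in the knockout, without overlap. At the brightest probe 0 of the 4 passed limma's adjusted threshold, against 3.41% of all loci, and 3 passed an unadjusted p under 0.05, against 19.6%. These 3 went both ways, with MADS4 at 0.64, MADS14 at -0.39 and MADS15 at -0.62. The remaining tested gene, MADS16, differed by -0.05 ± 0.10 (SE). The part of these marker differences in the hairpin and target values was not tested.

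The 77 tested probes of the other rice microRNAs stood beside the members as follows. Of these, 21 rose and 2 fell (29.9% called), with a median difference of 0.40. Their 18 tested Mature probes held 12 of the rises. Of the members' 7 tested Mature probes, 6 were of miR166 and moved together across the arrays. Limma called 0 of these 7, against 3.16% of all tested probes. At an unadjusted p under 0.05, 1 of them passed, against 19.1%. Whether the families differ in this respect was not tested.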

How the data were processed

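Spot intensity was taken from the deposited scanner files. Agilent Feature Extraction 12.0.3.1, named in the submitters' processing notes, had subtracted background and removed spatial trend on each array, per the file headers. Cy3-labelled RNA was made from 0.1 µg of total RNA, per the labels' protocols. The authors' value table, also intensity, equals each array's processed signal times 1 constant (1.51 to 1.72) in all 43734 gene rows. How the constants were set is not stated there.

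From these, log2 of the processed signal minus the array's 75th percentile was computed. Left out were the 590 spots of the design's own controls and the outlier spots (5 to 9 on each array). Spots of 1 probe were averaged. A probe was above background on an array if more than 0.5 of its spots carried that mark. It was tested if 1 genotype or both had it above background on all 3 arrays. limma 3.58.1 (R 4.3.3) was fitted over all such probes with genotype as the one term, two-sided, with Benjamini-Hochberg adjustment at 0.05. The scripts were tested on simulated data. Slide holds 1 genotype each and could not enter as a block.

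Members and gene lists were chosen with earlier results of these data known. Probes named in the text were every called member, the 2 brightest tested probes of each family, the 2 hairpins with the largest change in flank gap, and the 2 target loci per family with the largest difference. Other probes and loci were chosen after their values were seen. Names of target loci come from prior knowledge of rice: 31 of 43 occur in the reference table (assembly ASM3414082v1), and 29 lie on the locus' own chromosome there, SPL18 and GRF2 being the exceptions. No hairpin or probe sequence was used here. Alternatives were normexp (offset 50) with quantile normalisation, quantile alone, the authors' values, no filter, a filter on all 6 arrays, a replicate block and leaving out each array. Normexp used the median spot signal, since the files hold no mean.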

Additional observations from a re-analysis of the deposited data

Results flagged for a closer look

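Among 59 control probes of the array's own design, which entered no comparison, 5 were bright enough to read. On 3 of them every knockout array was above every wild-type array: POsControl0021 by 1.56 log2 units, POsControl0001 by 0.54 and PZmControl0003 by 0.31. Among all tested gene probes, 27.0% did not overlap in one direction or the other. POsControl0016 differed by 0.35 and POsControl0005 by -0.52, both with overlap. The labels and headers used do not state what these probes detect, and no test was run on them.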

How the results depend on the processing

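The number of member probes called was 3, and it was 0 with normexp, 1 under the filter on all 6 arrays (which tests 30 members and leaves miR171c out by construction) and 0 to 4 when single arrays were left out. The 4 calls without knockout replicate 1 were both miR171c probes, miR166c 3′seq at -0.66 and miR156k 5′seq at 0.85. Over all probes 1016 were called, against 645 with no filter and 143 to 1539 when an array was left out. Leaving out wild-type replicate 1, 2 or 3 gave 156, 220 or 143 calls, and leaving out knockout replicate 1, 2 or 3 gave 1539, 249 or 1271. Normexp split the calls into 457 rises and 494 falls, where the values used gave 600 and 416. The cause was not tested. Target loci called were 0 under each alternative except 1, SPL7, without knockout replicate 3. Hairpins called for their flank gap were 0, but 2 with normexp (miR160b and miR160f, neither a member) and 0 to 1 when an array was left out. Normexp turned miR172d 5′seq to 0.032. Leaving out single arrays turned the sign of 8 named values, none of them called, whose ranges were -0.087 to 0.32 for miR159a 3′seq, -0.25 to 0.21 for miR172d 3′seq, -0.46 to 0.28 for miR172d 5′seq, -0.083 to 0.24 for miR396d 5′seq, -0.18 to 0.080 for GAMYB, -0.16 to 0.11 for HB3, -0.056 to 0.85 for TOE3 and -0.82 to 0.27 for GRF6.

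With the replicate number as a block, 458 probes and 2 members were called, miR156d 3′seq having an adjusted p of 0.0975. Deviations of same-numbered arrays from their genotype's mean correlated at 0.41, -0.17 and 0.16, and those of differently numbered arrays at -0.49 to 0.35. With 3 arrays per genotype, these values cannot tell whether the numbers pair the samples. Signal over background limits what could be read, since 99 of 147 probes were dark on every array and the calls of miR171c rest on arrays near background. Quantile normalisation and the authors' values left the same 3 members called.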

Other observations

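Single probes of the floral marker genes passed limma's adjusted threshold although their brightest probes did not. The MADS4 probe AK100233 rose by 1.10 log2 units (adjusted p 0.0102), from -6.53, -6.54 and -6.40 in wild-type to -5.29, -5.42 and -5.45 in the knockout. The brighter MADS4 probe L37527 differed by 0.64 (adjusted p 0.0559). The MADS14 probe AY551916 fell by 0.55 (adjusted p 0.0419), while the other 5 MADS14 probes differed by -0.20 to -0.39 without passing. MADS4 is a B-class floral gene and MADS14 a gene of the floral transition.

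Of the 13 member probes above background on some arrays but not tested, 5 belong to miR156, 2 to miR166, 4 to miR171 and 2 to miR396. The miR156 and miR166 probes were seen on equal numbers of wild-type and knockout arrays, 5 and 5 for miR156 and 2 and 2 for miR166.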
